A study of Mus musculus with 6 samples.

Results

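Productive heavy-chain joins with a positively charged CDR3 made up 5698 of 167455 productive sequences in 6 libraries of mouse B cell DNA. The libraries held 228609 sequences in all. Members were chosen by the measured residues of the CDR3, the loop formed where V, D and J genes join. Arginines and lysines were counted, aspartates and glutamates subtracted, over the residues left when the first 2 and the last 3 are taken away (the interior). A net charge of 2 or more made a sequence charged, and it was set against the 137386 productive sequences of net charge 0 or less. A further 24371 sequences of net charge 1 entered neither class. Rearranged Igh genes were read from genomic DNA by VDJ-seq, a method that captures V(D)J joins at the DNA level. The DNA came from spleens of C57BL/6 mice aged 12 weeks, from B cells enriched by depleting other cells on magnetic columns. An input series of 4 libraries began at 500 ng of DNA and went through 1 µg and 2.5 µg to 5 µg. A further pair, Q5_vent and Q5_Q5, differed by the DNA polymerases used; the sources used here give no DNA amount for it. Each group was 1 library, and nothing says whether the libraries came from separate animals, so the spread between libraries may be technical. Since the DNA was genomic, each sequence shows a rearranged gene and not its expression, and no marker genes can check the cell type.

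A productive heavy chain gene is built by joining a V, a D and a J segment, with bases removed from the segment ends and untemplated N bases added by terminal deoxynucleotidyl transferase. The D segment can be read in 3 frames, which encode different residues, and mouse repertoires are known to favour the frame rich in tyrosine and glycine. Arginines in the heavy chain CDR3 are a known feature of many antibodies that bind DNA, which is why the charge of this loop is followed in studies of B cell tolerance.

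The charged clones found in most libraries show how the basic residues lay in the loop, and are printed for that reason. Sequences that share their V gene, their J gene and every CDR3 base are called a clone. Each line is the CDR3 from 5′ to 3′ as read in the libraries, with the interior codons for arginine or lysine in capitals. The arginine codon that many V genes supply as the second residue lies outside the interior and stays in lower case.
Ighv1-82 with Ighd2-12 and Ighj1: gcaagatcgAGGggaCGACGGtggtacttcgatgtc
Ighv1-69 with Ighd2-3 and Ighj4: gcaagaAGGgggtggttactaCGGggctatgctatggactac
Ighv1-15 with Ighd1-1 and Ighj3: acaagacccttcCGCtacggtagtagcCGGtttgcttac
Ighv1-9 with no D call and Ighj4: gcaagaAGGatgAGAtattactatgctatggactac
Ighv1-50 with Ighd2-3 and Ighj4: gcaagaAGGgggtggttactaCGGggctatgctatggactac
Ighv3-6 with Ighd1-1 and Ighj1: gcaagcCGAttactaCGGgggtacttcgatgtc
The Ighv1-82 clone was read in 13 sequences from 4 libraries and has a net charge of 3. The Ighv1-69 clone was read in 8 sequences from 4 libraries. Its CDR3 is identical to that of the Ighv1-50 clone, read in 4 sequences from 3 libraries, so the V gene of these sequences is uncertain.

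The 3 sequences of highest net charge, 5, are shown because they mark the upper end of the range. Each was seen in 1 library.
Ighv1-22 with Ighd2-4 and Ighj4: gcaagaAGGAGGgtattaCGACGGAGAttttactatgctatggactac
Ighv1-26 with Ighd2-2 and Ighj2: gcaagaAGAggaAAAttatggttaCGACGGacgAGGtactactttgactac
Ighv1-70 with Ighd2-4 and Ighj2: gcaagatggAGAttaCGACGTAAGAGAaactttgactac
All 3 read an Ighd2 gene in frame 2. The first holds 5 arginines, and the other two hold 4 arginines and 1 lysine each.

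A further set shows the median-length charged CDR3 with the most reads for each J gene.
Ighj1, with Ighv1-69 and Ighd2-2: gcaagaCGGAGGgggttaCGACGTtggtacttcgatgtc
Ighj2, with Ighv1-50 and Ighd2-3: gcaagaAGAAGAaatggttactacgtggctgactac
Ighj3, with Ighv5-17 and Ighd3-2: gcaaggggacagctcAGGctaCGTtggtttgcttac
Ighj4, with Ighv8-12 and Ighd1-3: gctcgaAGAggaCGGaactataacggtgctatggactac
The Ighj2 sequence reads its D gene in frame 3 and has its arginines next to V. The Ighj3 sequence has 1 base between V and D and 2 between D and J.

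Charged CDR3s were a small and similar share of productive sequences in every library. They made up 3.51% (222 sequences), 3.35% (417), 3.33% (1370) and 3.39% (2793) from the smallest to the largest DNA input, then 3.40% (482) for Q5_vent and 3.72% (414) for Q5_Q5. The mean was 3.45% ± 0.146 (SD, n = 6 libraries). Intervals here and below are 95% intervals and cover counting error only. The 5 µg library minus the 500 ng library gave -0.113 percentage points (interval -0.583 to 0.357). Q5_Q5 minus Q5_vent gave 0.320 points (interval -0.142 to 0.781). With 1 library on each side neither difference has a replicate check, and both intervals include 0. Productive sequences per library ranged from 6332 to 82314, so the 500 ng values are the least precise.

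**Figure D1:**
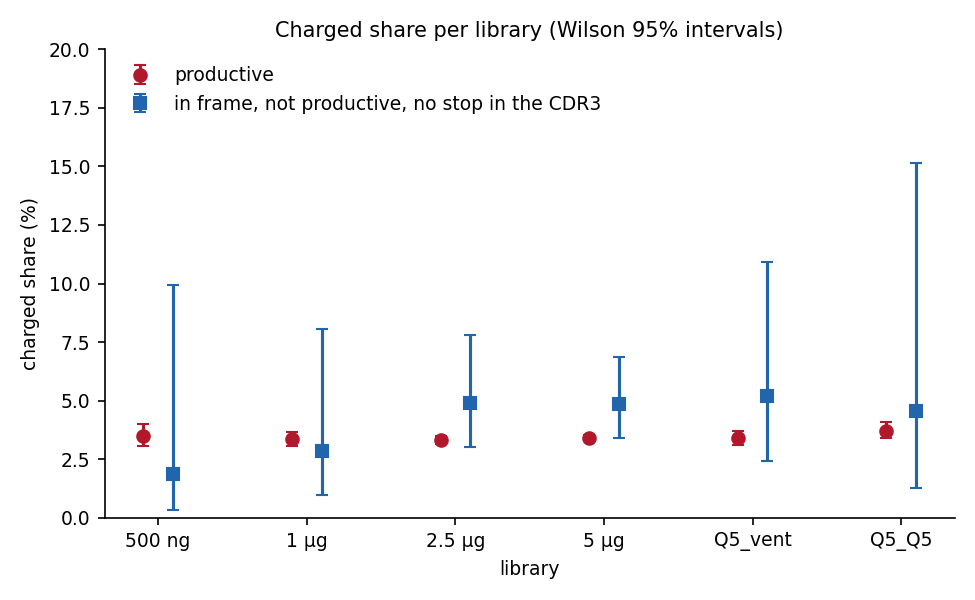
Charged share in percent for each library, with Wilson 95% intervals, for productive sequences (circles) and for sequences that are in frame, not productive and without a stop in the CDR3 (squares). The productive shares lie between 3.33% and 3.72%, and the intervals of the squares are wide because they rest on 44 to 618 sequences per library.

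Most charged CDR3s sat just inside the threshold. A net charge of exactly 2 was found in 5026 sequences, 3 in 617, 4 in 52 and 5 in 3. Most carried no acidic residue at all in the interior (91.2%). Arginine without lysine was found in 73.4%, arginine with lysine in 24.1% and lysine without arginine in 2.47%. The basic residues were neighbours in 47.4% of charged sequences. They were most often the first interior residue on the V side, which held 22.5% of them, and seldom the last interior residue on the J side, which held 2.44%. The sequences just outside the threshold, of net charge 1, lay between the classes on several measures. Ighd2 in frame 2 was found in 21.6% at a net charge of 2, 8.69% at 1 and 3.24% at 0. Bases between segments averaged 9.81 at a net charge of 2, 8.39 at 1 and 7.03 at 0, and were above the value at 0 on the negative side too, with 7.28 at -1, 7.94 at -2 and 9.08 at -3 or less.

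The classes differed widely in the reading frame of the D gene. Frames are numbered by the germline D base at which codons begin: frame 1 at the first, frame 2 at the second and frame 3 at the third. Because D codons enter the charge, the values that follow describe the members and carry no test. Ratios of shares are Mantel-Haenszel ratios with library as stratum. Ighd2 genes (the DSP2 family, the largest D family) in frame 2 made up 25.7%, 22.8%, 23.7% and 23.1% of charged sequences in the input series, smallest amount first, then 25.5% for Q5_vent and 25.8% for Q5_Q5. In the class of 0 or less the same frame ranged from 2.13% to 2.38%. No library's values overlapped between the classes, and the ratio was 10.6 (interval 10.01 to 11.24).

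Ighd3 (the DST4 family) in frame 1 was the frame with the highest ratio of the 12 examined. It made up 8.56%, 6.47%, 8.91% and 11.3% of charged sequences from the smallest to the largest DNA input, then 8.30% for Q5_vent and 10.6% for Q5_Q5, against 0.654% to 0.792% in the class of 0 or less. The ratio was 13.3 (interval 12.0 to 14.6). Ighd1 (the DFL16 family) in frame 2 was 10.3% ± 0.549 against 1.45% ± 0.136 (SD, n = 6 libraries), a ratio of 6.78. Ighd4, the DQ52 gene nearest to J, was higher in frame 2 with a ratio of 2.72, and Ighd2 in frame 1 with a ratio of 1.82. These 5 frames were higher in 6 of 6 libraries. The sizes moved with the classes compared. At a net charge of 3 or more the ratio was 23.4 for Ighd3 frame 1, 17.7 for Ighd2 frame 2 and 1.79 for Ighd4 frame 2. Against sequences of net charge 1 or less it was 8.09 for Ighd3 frame 1 and 4.12 for Ighd1 frame 2. Ighd2 in frame 1 turned lower at 3 or more, with a ratio of 0.635 (interval 0.303 to 1.33), and its interval included 1 in the polymerase pair alone (1.27, 0.804 to 2.01).

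Frames common in the rest of the repertoire were less common among charged sequences. Ighd2 in frame 3, the most used frame of the class of 0 or less at 37.8% ± 0.254, was 10.9% ± 1.02 of charged sequences, a ratio of 0.282. Ighd4 in frame 3 had a ratio of 0.155, Ighd1 in frame 3 of 0.613 and Ighd1 in frame 1 of 0.720. Frames 2 and 3 of Ighd3 had ratios of 0.839 (interval 0.703 to 1.00) and 0.621, and frame 1 of Ighd4 had 1.17 (interval 0.993 to 1.37). The last 3 turned with the way charge was counted: over the whole CDR3 Ighd3 had 1.19 (interval 1.05 to 1.35) in frame 2 and 1.22 (interval 1.07 to 1.39) in frame 3, and against exactly 0 Ighd4 frame 1 had 0.812 (interval 0.691 to 0.953). At 3 or more Ighd3 frame 2 had 0.284 (interval 0.119 to 0.681). The family totals moved far less than the frames. Ighd3 made up 13.6% of charged sequences against 5.71%, a ratio of 2.39. Sequences without a D call had a ratio of 1.31, Ighd1 of 0.869 and Ighd2 of 0.896. The ratio for no D call was 0.870 (interval 0.623 to 1.21) at a net charge of 3 or more and 1.06 (interval 0.964 to 1.17) against exactly 0. Ighd2 as a family is higher among sequences of net charge 3 or more, with a ratio of 1.14, and higher against sequences of net charge exactly 0, with 1.28. Ratios for Ighd4 (0.983), Ighd5 (0.980) and Ighd6 (0.870) had intervals that include 1, except that Ighd4 had 0.559 (interval 0.383 to 0.815) at 3 or more and Ighd6 had 0.642 (interval 0.433 to 0.953) against exactly 0.

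**Figure D2:**
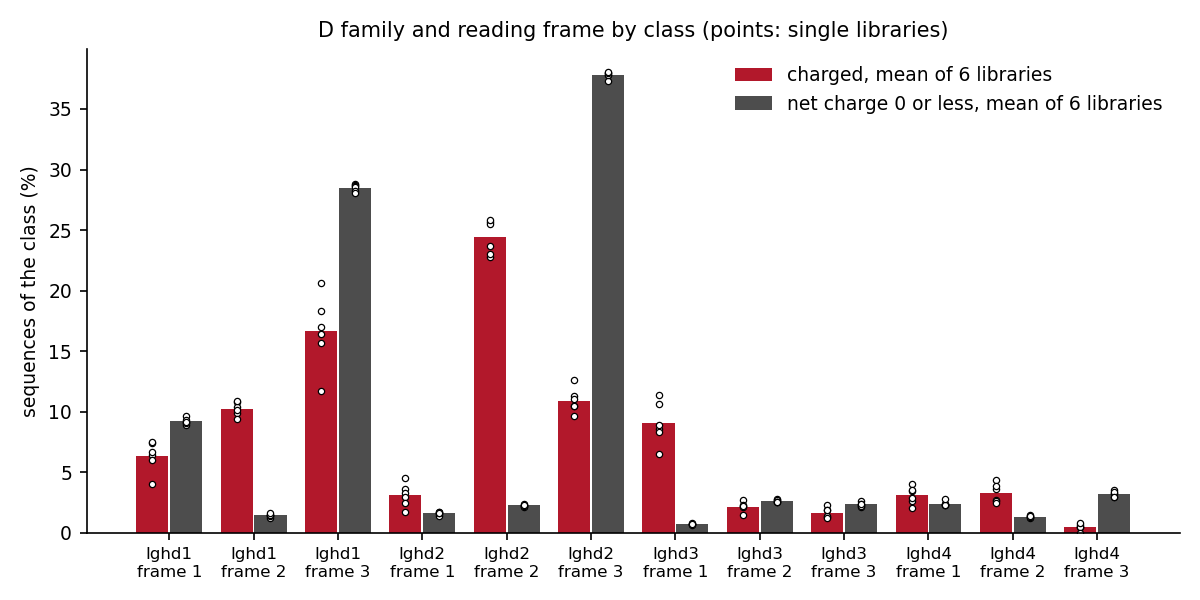
Share in percent of each class that used a D family in a given frame, for charged sequences and for those of net charge 0 or less. Bars are means of 6 libraries and points are single libraries. The charged bars are higher for Ighd1 frame 2, Ighd2 frame 2 and Ighd3 frame 1, and lower for Ighd1 frame 3 and Ighd2 frame 3.

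Within a single D gene the frame moved the charged share by a wide margin. Of productive sequences that read Ighd2-4 in frame 2, 36.8% were charged (615 of 1669, Wilson interval 34.6% to 39.2%), and over libraries the share ran from 32.1% to 47.6%. The same gene in frame 3 gave 8 charged among 17585 sequences, or 0.0455%, with a mean net charge of -1.94. Ighd3-2 in frame 1 gave 35.5% charged (482 of 1358), with a range over libraries of 28.1% to 43.3%, and in frame 2 gave 1.07%. Ighd2-12 in frame 2 gave 31.4%, Ighd2-2 in frame 2 gave 30.6% and Ighd1-1 in frame 2 gave 12.2%. Not every Ighd2 gene did so in that frame: Ighd2-1 gave 2.84% and Ighd2-3 gave 8.76%. These D genes were chosen after their values were seen. Only the first gene of each D call was used, and D stretches of charged sequences had a median of 9 bases. Single D genes are therefore uncertain where the stretch is short.

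Examples of D stretches called in these frames are shown in 3 charged CDR3s, each with the longest D stretch of its family and frame, picked after the values were seen. The Ighd1-1 line holds a further g after its first CGG, which the Ighd1-1 clone with Ighj3 printed above lacks. Read against that clone, the D codons after this g are not in frame 2. The line therefore does not show that frame read at full length.
Ighd3-2 in frame 1, with Ighv1-80 and Ighj3: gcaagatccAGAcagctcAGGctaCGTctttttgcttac
Ighd2-2 in frame 2, with Ighv8-5 and Ighj3: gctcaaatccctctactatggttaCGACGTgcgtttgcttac
Ighd1-1 in frame 2, with Ighv1-81 and Ighj2: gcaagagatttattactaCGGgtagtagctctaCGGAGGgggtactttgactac
Among charged sequences of Ighd2 in frame 2 the most common stretch aligned to D was gattacgac, in 35.8%. Of the arginine codons made of Ighd2-4 bases in frame 2, all 550 were CGA. All 354 from Ighd1-1 in frame 2 were CGG, and 463 of 640 from Ighd3-2 in frame 1 were AGG.

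The stretches between segments, where N bases are added, were longer in charged sequences than in the class of 0 or less at both junctions. Bases between V and D averaged 5.78, 6.02, 6.03 and 5.82 in the input series, smallest amount first, then 5.90 for Q5_vent and 5.75 for Q5_Q5. The class of 0 or less ranged from 4.43 to 4.47, so no values overlapped. The difference was 1.43 ± 0.104 bases (SD, n = 6 libraries). Between D and J the charged class averaged 4.21 ± 0.202 bases against 2.90 ± 0.00597, a difference of 1.32 ± 0.197. This is not particular to positive charge: at a net charge of -3 or less the stretch from D to J averaged 4.16 bases and that from V to D 4.92. Summed, the bases between segments came to 10.1 against 7.35. The D stretch was shorter, 9.93 against 11.7 bases, and the J gene began later in its germline sequence, at base 4.56 against 4.16. V contributed similar numbers of bases to the CDR3, 6.01 and 6.05. The deposited lengths count every base between aligned segments, so palindromic P bases and trimmed D ends are included. Sequences without a D call, 7.39% of the charged class and 5.64% of the other, are in the means for both junctions. Their whole stretch from V to J counts as V to D, with no bases from D to J. Since these bases also enter the charge, these differences carry no test.

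The charged share climbed with the number of bases between segments. It was 0.391% of 2304 sequences with none, 1.45% at 4 bases, 3.38% at 8, 5.97% at 12 and 9.65% of 891 sequences at 18. The steps were not all upward, as from 5.30% at 10 bases to 5.06% at 11. Mean net charge showed no such climb. It was -0.519 at 1 base, -0.366 at 10, -0.421 at 11, -0.426 at 16 and -0.395 at 19, with its highest value, -0.334, at 18. At 20 bases the share was 8.03%, with an interval of 5.83% to 11.0%.

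**Figure D3:**
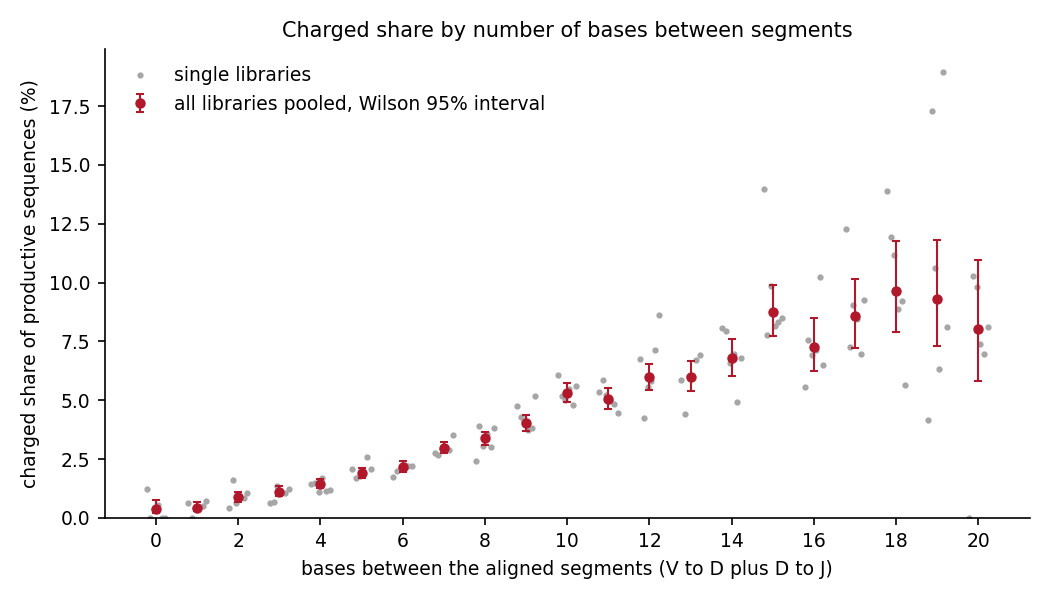
Charged share of productive sequences in percent against the number of bases between aligned segments, V to D plus D to J. Filled points are all libraries pooled with Wilson 95% intervals, and grey points are single libraries. The share climbs from 0.391% at 0 bases to 9.65% at 18, and single libraries scatter widely above 14 bases.

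CDR3s of the charged class were slightly longer, 13.0 ± 0.0843 residues against 12.6 ± 0.0204, a difference of 0.341 ± 0.0922 (SD, n = 6 libraries) that was above 0 in 6 of 6 libraries. Strongly negative CDR3s were as long or longer, with means of 13.02 residues at a net charge of -2 and 13.7 at -3 or less, against 12.4 at 0. The size of the difference, with libraries weighted together, was 0.337 residues, 1.02 at a net charge of 3 or more and 0.564 against exactly 0. With every residue of the CDR3 counted in the charge, the difference was -0.0389 residues (interval -0.0845 to 0.0067). The charged share was 1.44% at 9 residues and 3.53% at 11. From 12 to 18 residues it stayed between 3.60% and 3.91%. It was 4.52% of 885 sequences at 19 residues (interval 3.34% to 6.10%) and 5.83% of 309 at 20 (interval 3.72% to 9.02%).

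The 12637 interior arginine and lysine codons of the charged class were traced to the segments that held their bases. Codons made wholly of bases between segments were 46.7% ± 0.878 (SD, n = 6 libraries). Codons spanning a segment edge into those bases were 33.8% ± 0.669, and codons of D bases alone were 17.2% ± 1.32. V alone gave 1.27% and J alone 0.124%. In the class of 0 or less, which held 26596 such codons, D alone gave 5.74% ± 0.601 and bases between segments 63.1% ± 0.452. Lysine and arginine differed in origin. Of 1731 lysine codons 97.9% held at least 1 base from between segments, against 77.5% of 10906 arginine codons. AGG was the most common arginine codon between segments in both classes, at 47.8% in the charged class and 52.1% in the class of 0 or less. D alone favoured CGA in the charged class, at 45.9% against 20.1% in the class of 0 or less, where CGG led at 49.3%.

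**Figure D4:**
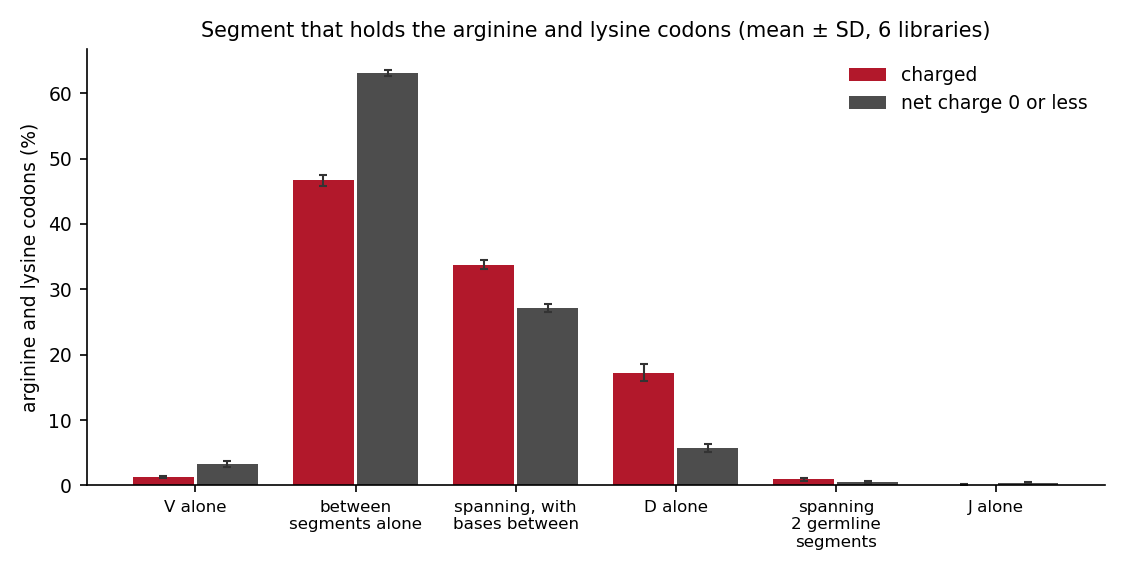
Percent of interior arginine and lysine codons by the segment that holds their bases, for charged sequences and for those of net charge 0 or less. Bars are means of 6 libraries and error bars are SD. Codons of D bases alone are 17.2% in the charged class against 5.74%, and codons wholly between segments are 46.7% against 63.1%.

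At least 1 basic codon of D bases alone was found in 2024 of 5695 charged sequences that could be traced, or 35.5%. These had 8.89 bases between segments on average, fewer than the 10.6 of the 3671 charged sequences without such a codon. In 1314 sequences every basic codon lay wholly between segments, and these averaged 12.6 bases there. In 99 sequences every basic codon came from D alone. The frames Ighd3 frame 1 and Ighd1, Ighd2 and Ighd4 frame 2, grouped after their values were seen, held 47.2% of charged sequences and 5.78% of the others.

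The uncharged part of the interior differed too. Leucine, whose codons stand beside an arginine codon in several of the printed D stretches, made up 12.8% of uncharged interior residues in the charged class against 3.65%. Tyrosine made up 22.6% against 29.8% and serine 8.71% against 12.7%. Glycine was 20.2% against 18.2%. An interior cysteine was found in 0.790% of charged sequences against 1.74%, a ratio of 0.453.

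J gene use differed between the classes, and parts of the difference turned with how charge was counted. Ighj3 made up 15.8%, 12.9%, 16.1% and 16.9% of charged sequences from the smallest to the largest DNA input, then 11.8% for Q5_vent and 13.5% for Q5_Q5. It ranged from 22.5% to 25.1% in the class of 0 or less, and the ratio was 0.643 (interval 0.605 to 0.684). Ighj1 was higher with a ratio of 1.27 (interval 1.21 to 1.33) and Ighj4 with 1.16 (interval 1.11 to 1.20), each in 6 of 6 libraries. Ighj2 had a ratio of 0.973 (interval 0.932 to 1.02). A basic codon holding at least 1 J base was present in 34.1% of charged Ighj1 sequences, 13.1% of Ighj3, 5.80% of Ighj4 and 2.15% of Ighj2. With such codons left out of the charge the ratio was 0.990 for Ighj1 (interval 0.939 to 1.04), 1.06 for Ighj2, 0.562 for Ighj3 and 1.34 for Ighj4. With all CDR3 residues counted, so that the J-encoded end enters, it was 0.671 for Ighj1, 2.70 for Ighj3 and 0.620 for Ighj4. Ighj3 and Ighj4 thus kept their direction without J-base codons but not over the whole CDR3.

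V families were compared next. V bases reach past the first 2 residues in some sequences and then enter the charge, so each ratio was also taken over sequences with no V base there, which were 85.4% of the charged class and 81.1% of the other. Ighv1, the large J558 family of the distal part of the locus, made up 66.7% ± 1.72 of charged sequences against 61.4% ± 0.578, a ratio of 1.11, and 1.08 without such V bases. Ighv8 had a ratio of 1.42, which became 0.842 (interval 0.634 to 1.12) without them. Ighv10 (the DNA4 family) made up 0.450%, 0.959%, 0.511% and 0.573% of charged sequences in the input series, smallest amount first, then 0.622% for Q5_vent and 0.966% for Q5_Q5. Its range in the class of 0 or less was 2.73% to 3.31%, and its ratio was 0.202, or 0.218 without such V bases.

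Most other families were lower among charged sequences. Ratios were 0.196 for Ighv11 and 0.145 for Ighv12, on 3 charged sequences each, 0.308 for Ighv13, 0.378 for Ighv15, 0.560 for Ighv7, 0.661 for Ighv3, 0.708 for Ighv5, 0.812 for Ighv14 and 0.824 for Ighv6. With 1 count per clone Ighv11 had 0.402 (interval 0.128 to 1.26) and Ighv12 had 0.228, and without the 5 µg library the interval for Ighv11 also included 1 (0.256, 0.0636 to 1.03). Without that library the intervals of Ighv6 (0.942), Ighv14 (0.865) and Ighv15 (0.500) included 1 as well, and without the 2.5 µg library those of Ighv14 (0.846) and Ighv15 (0.376). The intervals for Ighv2 (1.04), Ighv4 (1.18) and Ighv9 (1.01) include 1. Without V bases past the first 2 residues Ighv3 turned to 1.17 (interval 0.960 to 1.42) and Ighv2 was 0.528 (interval 0.404 to 0.690). Ighv6 was 1.04 with CDR3 length as a further stratum. The distal families Ighv1 and Ighv8 together had a ratio of 1.13, the D-proximal families Ighv2 and Ighv5 of 0.830 and all others of 0.697.

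Single V genes were called when their ratio was at least 1.5-fold either way, its interval excluded 1 and its direction was the same in 6 of 6 libraries. Among 93 genes with at least 100 sequences, 7 were called higher (7.53% of those tested) and 14 lower (15.1%). The rule that chose the members used some V bases, so nothing is read from these shares. Of the 93 genes, 2 had no charged sequence, so they have no ratio and could not be called. These were Ighv7-1, with 481 sequences in the class of 0 or less, and Ighv1-87, with 137. Both were lower in 6 of 6 libraries, and without V bases past the first 2 residues they kept 5 and 4 sequences. The median ratio over the other tested genes was 0.814. The 7 higher genes held 32.2% of charged sequences and 16.5% of the others. Of the 21 called genes, 17 kept at least 100 sequences without V bases past the first 2 residues, and 15 of these had the same direction.

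Ighv1-26 was the most frequent V gene of the charged class. It lies on chromosome 12 at 114788372 to 114788665 (RefSeq, GRCm38.p6), made up 9.65% of charged sequences against 5.71% (means of 6 libraries) and had a ratio of 1.67 (interval 1.53 to 1.81). Ighv1-18 at 114682632 to 114682925 had a ratio of 2.27 and Ighv1-9 at 114583569 to 114583862 a ratio of 2.03. Ighv1-69 had 1.85, Ighv1-50 had 1.84 and Ighv1-47 had an interval of 1.63 to 3.25. None of the charged sequences of these 6 Ighv1 genes held a basic codon with a V base, and without V bases past the first 2 residues their ratios were 1.58 to 2.19. Calls naming several near-identical V genes were 11.7% of productive sequences, so counts of single Ighv1 genes are uncertain.

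Ighv8-12 had the highest ratio of the called genes and the clearest V contribution. It lies at 115647945 to 115648245 and gave a ratio of 2.59 (interval 2.26 to 2.97). In 203 of its 224 charged sequences (90.6%) a basic codon held a V base, as in the Ighj4 sequence printed above, against 3.75% of charged sequences of all other V genes. Without V bases past the first 2 residues its ratio was 0.377, on 9 charged sequences. The remaining genes of the 10 most frequent were not called: Ighv9-3 (1.20), Ighv8-8 (0.868), Ighv1-55 (1.16) and Ighv1-53 (0.903).

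The genes called lower included Ighv12-3 and Ighv11-2, known from B-1 cells, and genes of the Ighv5 and Ighv10 families. Ighv12-3, a gene of B-1 cells that bind phosphatidylcholine, at 114366526 to 114366819, had 1 charged sequence against 459 in the other class, a ratio of 0.0526. Ighv11-2, used by the same cells, at 114048241 to 114048704, had 3 against 364, a ratio of 0.199. In most sequences of both genes V bases enter the charge: without V bases past the first 2 residues Ighv12-3 kept 1 sequence, and Ighv11-2 kept 1 charged and 40 others, with a ratio of 0.573 (interval 0.0789 to 4.16). Ighv10-3 had a ratio of 0.0965, which became 0.303 (interval 0.125 to 0.733), no longer called, without such V bases. Ighv10-1 had a ratio of 0.293, and 0.176 without them. Ighv5-6-4 was lower on 1 charged sequence against 202, a ratio of 0.119 (interval 0.0167 to 0.851). Ighv1-62-2 (0.228), Ighv5-16 (0.275), Ighv1-66 (0.312), Ighv5-9-1 (0.376) and Ighv1-7 (0.395) were also lower. Ighv5-6-4 kept 16 sequences without such V bases, none charged, and Ighv1-62-2 kept 1 charged and 14 others. Ighv5-4, named after its values were seen, had a ratio of 0.504 that became 2.36 (interval 1.49 to 3.73) without V bases past the first 2 residues, on 20 charged sequences.

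**Figure D5:**
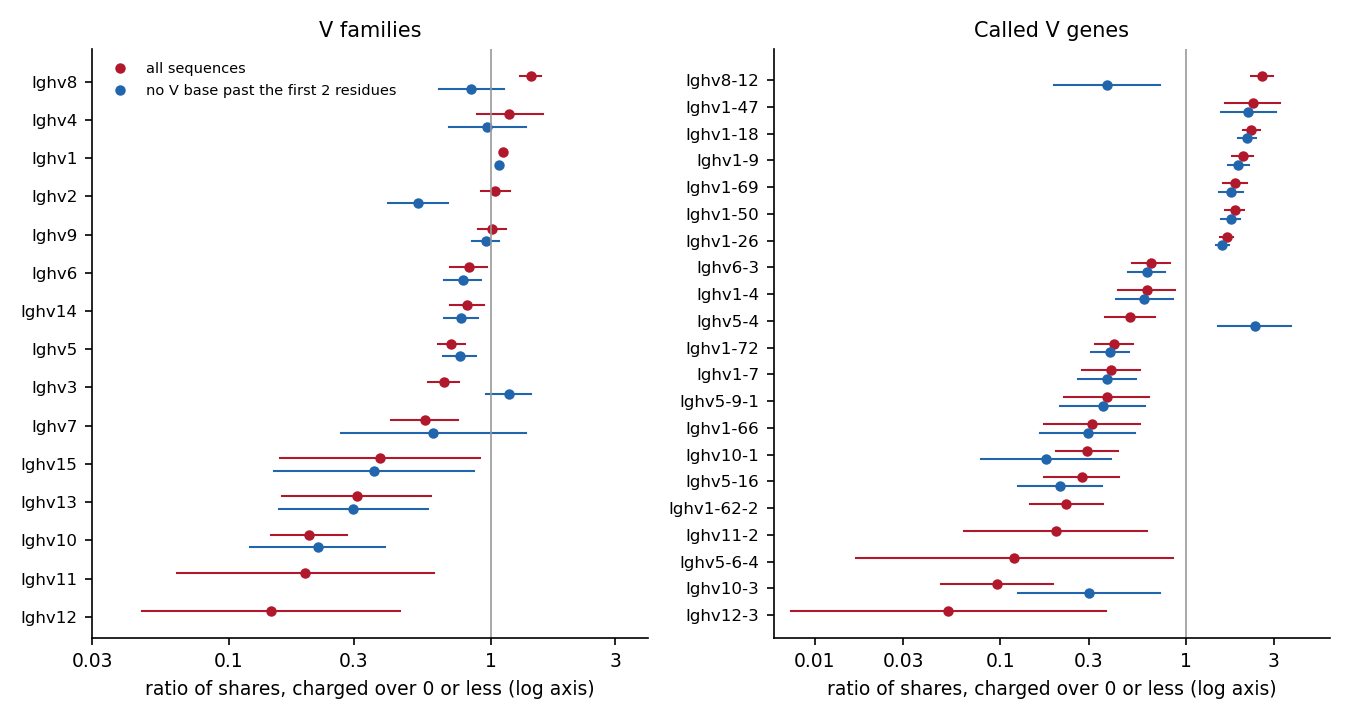
Ratio of shares, charged over net charge 0 or less, on a log axis, for V families (left) and the 21 called V genes (right), with 95% intervals. Red points use all sequences and blue points those with no V base past the first 2 residues, shown where at least 100 such sequences exist. Ighv8-12 and Ighv5-4 change sides of 1 between the colours, while the Ighv1 genes with ratios above 1 stay above it.

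The productive flag is part of the rule that chose the members, so its relation to charge is a description with no test. Among sequences that were in frame, not productive and without a stop in the CDR3, 58 of 1261 were charged, or 4.60% (Wilson interval 3.58% to 5.90%). Charged sequences were 1.89%, 2.86%, 4.91% and 4.85% of these from the smallest to the largest DNA input, then 5.22% for Q5_vent and 4.55% for Q5_Q5. The ratio of productive over non-productive shares was 0.737 (interval 0.573 to 0.949), below 1 in 4 of 6 libraries. The interval includes 1 without the 2.5 µg library (0.759, 0.564 to 1.02) or without the 5 µg library (0.779, 0.541 to 1.12). Ighv3-2 alone made up 14.9% of these non-productive sequences, and the part of V gene use in the ratio was not tested.

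A family of 3 readouts that the choice of members did not use was tested over the 6 libraries, with an exact two-sided sign-flip permutation test whose smallest p is 0.03125 and with Benjamini-Hochberg adjustment over the 3. The first was clone recurrence, which the rule did not use but which rests on CDR3 bases that also set the charge. Clones shared between libraries were fewer in the charged class of every library than in the class of 0 or less, a difference that did not pass after adjustment. With 6 libraries a readout that alone reaches the smallest p cannot pass this adjustment, so not passing does not measure the size of the difference. The share whose clone was also in another library was 1.35%, 2.16%, 1.46% and 1.11% in the input series, smallest amount first, then 1.66% for Q5_vent and 1.21% for Q5_Q5. In the class of 0 or less it was 3.67%, 3.14%, 2.73%, 2.21%, 3.23% and 3.03% in the same order. The difference was -1.51 ± 0.502 percentage points (SD, n = 6 libraries), below 0 in 6 of 6 libraries, with an exact permutation p of 0.03125, the smallest possible, and an adjusted p of 0.09375. A shared clone counts in every library that holds it, so the 6 differences are not independent and this p can be too small. For example, 2 charged clones, each found in 4 libraries, held 21 sequences. The ratio was 0.512 (interval 0.408 to 0.641). Bases between segments moved with it: with their number as a further stratum the ratio was 0.713 (interval 0.567 to 0.896). Among sequences with 9 or more bases between segments 1.54% of charged and 1.75% of other sequences recurred. With 1 to 4 bases the shares were 1.02% and 3.62%. The 76 recurring charged sequences belonged to 23 clones, the largest being the Ighv1-82 clone printed above. Low recurrence is not particular to charged CDR3s: it was 1.35% at a net charge of 1 and 1.23% at -3 or less, against 2.74% at 0, 2.34% at -1 and 3.29% at -2. At a net charge of 3 or more, which includes that clone, the ratio was 1.02 (interval 0.644 to 1.60).

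Mismatches to germline V and reads per sequence gave no difference that passed the test. At least 1 V mismatch was found in 7.21%, 5.28%, 6.93%, 6.98%, 5.60% and 3.38% of charged sequences in the order 500 ng, 1 µg, 2.5 µg, 5 µg, Q5_vent and Q5_Q5. The class of 0 or less had 7.52%, 6.69%, 6.89%, 6.37%, 6.06% and 3.03%. The ratio was 1.03 (interval 0.930 to 1.14), above 1 in 3 of 6 libraries, with an exact permutation p of 0.6875, also after adjustment. Q5_Q5 was the lowest library in both classes. Reads per sequence differed by 0.171 ± 0.327 (SD, n = 6 libraries), with an exact permutation p of 0.4375 and an adjusted p of 0.65625. With every residue of the CDR3 counted in the charge, the difference with libraries weighted together was 0.697 reads (interval 0.566 to 0.827), against 0.00692 (interval -0.149 to 0.163) with the interior alone.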

How the data were processed

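Members and lists were chosen with earlier results of these data known. The authors deposited 1 row per deduplicated sequence. The submitters' processing notes list Bowtie2 2.3.2, Trim Galore 0.4.4 and mm10. The version and settings behind the gene calls were not given in the sources used here. V identity, per the file headers, is a fraction, used only as an alternative measure of mismatch, and segment starts and lengths are in bases, as deposited. Reads per sequence are inferred from the sequence names and are 3 or more in every sequence.

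The first gene of a call was used, alleles merged. Each CDR3 base was assigned to V, D, J or the bases between them from the deposited starts and lengths. Codons were not traced in 41 productive sequences whose CDR3 bases do not translate to the deposited residues. Ratios are Mantel-Haenszel ratios over libraries with Greenland-Robins 95% intervals. The ratio and the permutation test were tested on simulated data. The productive flag was also planned as a tested readout and is given without a test, since the member rule uses it. Coordinates were found for 88 of 93 V genes tested. Named V genes are the 10 most frequent in the charged class, up to 10 called in each direction, Ighv11-2 and Ighv12-3. Printed CDR3s are the 6 charged clones in most libraries, the 3 of highest charge and, per J gene, the median-length CDR3 with most reads. Alternatives were other charge thresholds and reference classes, clones, call and read filters, libraries left out and further strata. Python 3.11.15 and pandas 2.3.3 were used.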

Additional observations from a re-analysis of the deposited data

Results flagged for a closer look

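Of 39 measures taken in the 6 libraries, 4 had a library far from the other 5 by Dixon's criterion, which chance meets in about 1 in 20 groups. Ighv5 made up 8.56% of charged sequences at 500 ng, against at most 4.91% in the other libraries. Sequences without a D call made up 10.8% of the charged class at 500 ng, against at most 7.73%. Bases between D and J in charged sequences averaged 4.60 at 500 ng, with the next library at 4.21. The 500 ng library holds 222 charged sequences, the fewest of the 6. Ighj1 made up 30.2% of charged sequences at 1 µg, against at most 23.9% elsewhere.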

How the results depend on the processing

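The share of 3.45% was 0.436% for a net charge of 3 or more, 3.02% for exactly 2, 5.34% over the whole CDR3, 5.15% with histidine as positive and 3.61% without unclear primer tags. The 5 µg minus 500 ng difference was 0.0304 points for exactly 2 and 0.0350 for calls naming a single V gene. The productive over non-productive ratio lost its interval at 3 or more (0.840), over the whole CDR3 (0.903), without unclear tags (0.775) and in the polymerase pair (0.694), and ran from 0.714 to 0.779 with a library left out. The 21 called V genes became 5 at 3 or more, 33 over the whole CDR3 and 36 without the rule on direction. The 12 V families whose interval excluded 1 became 5 at 3 or more and 6 in the polymerase pair, and 8 to 12 with a library left out. Codons wholly between segments were 42.0% at 3 or more, 47.7% at exactly 2 and 49.0% over the whole CDR3. The mismatch ratio was 0.999 for exactly 2, 0.965 over the whole CDR3, 0.982 in the polymerase pair, 0.979 for 3 or more mismatches, and 0.963 to 1.05 with a library left out. The difference in reads was -0.00468 for exactly 2, -0.00310 for 1 count per clone, -0.0227 for single-gene calls, -0.0793 without unclear tags, 0.697 (interval 0.566 to 0.827) over the whole CDR3, and -0.0337 to 0.0725 with a library left out. The recurrence ratio was 1.02 at 3 or more, 0.647 (interval 0.266 to 1.57) in the polymerase pair, 0.425 without the largest clone and 0.479 to 0.547 with a library left out. CDR3 length gave -0.0389 residues over the whole CDR3, 1.02 at 3 or more, 0.564 against exactly 0, and 0.323 to 0.351 with a library left out. The cause of these shifts was not tested. Fewer sequences enter at 3 or more and in the pair, and the part of this in the shifts was not tested either.

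Among single families and frames the direction turned at 3 or more for Ighd2 (1.14), no D call (0.870) and Ighd2 frame 1 (0.635). Against exactly 0 it turned for Ighd2 (1.28) and Ighd4 frame 1 (0.812). Over the whole CDR3 it turned for Ighj1 (0.671), Ighj3 (2.70), Ighj4 (0.620), Ighd3 frame 2 (1.19) and Ighd3 frame 3 (1.22). Without V bases past the first 2 residues it turned for Ighv2 (0.528), Ighv3 (1.17) and Ighv8 (0.842), without J-base codons for Ighj1 (0.990) and Ighj2 (1.06), with length strata for Ighv6 (1.04) and in the polymerase pair for Ighv14 (1.01). The classes were compared within each library. Libraries of different groups could not be paired, because each group has 1 library and no replicate number links them. The strata by bases between segments and the removal of the largest clone were chosen after seeing the data. Depth limits the 500 ng library most, and the in-frame non-productive class everywhere.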

Other observations

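Sequences whose name carries an unclear J primer tag were charged less often, 2.05% of 15631 against 3.54% of 151824 with a clear tag. Their CDR3s were shorter, with a mean of 11.0 residues against 12.8. The gap lay mostly in Ighj2, where 13.2% of charged and 22.7% of other sequences had an unclear tag. In Ighj3 the shares were 8.85% and 11.8%. In Ighj1 (0.583% and 0.540%) and Ighj4 (1.25% and 1.16%) the intervals of the classes overlap.

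Of 5588 different charged CDR3s, counted with their J gene, 21 were read with more than a single V gene. They held 58 sequences, and 13 of the 21 were found in several libraries.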
